A study of Mus musculus with 6 samples.

Results

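The 38 genes described here belong to the histone families whose members are mostly replication-dependent: the core histones around which nuclear DNA is wound, and the linker histones. They were chosen by symbol, as the probe sets of the array whose gene symbol begins with H1f and a digit, H2ac, H2bc, H3c or H4c, the current names of the former Hist1 to Hist4 families. Of 70 gene entries that match these names in a RefSeq gene table, the 38 with a named probe set were used, among 23185 named genes tested and 25206 probe sets in all; the other matching entries are not analysed here. Sorted by protein, the 38 were 8 linker histone H1 genes, 9 H2A genes, 11 H2B genes, 7 H3 genes and 3 H4 genes. By position, 29 belonged to the large cluster on chromosome 13 (former Hist1 names), 6 to the smaller cluster on chromosome 3 (former Hist2 names), and 3 H1 genes lay outside both. The names also take in 6 genes that are restricted to germ cells or independent of replication (H1f6, H1f7, H1f8, H1f10, H2ac1 and H2bc1).

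The samples were total RNA from group 2 innate lymphoid cells (ILC2s), lymphocytes of the type 2 immune response, grown as a line from C57BL/6J mice. All 6 samples were grown with the cytokines IL-2 and IL-33 (10 ng/ml) and received a lentiviral CRISPR vector that also carried GFP, and GFP-positive cells were collected by sorting 6 days after transduction. The 3 control arrays come from cells with a non-targeting guide and the 3 others from cells with a guide against Myc; the latter carry the label Myc KO, for knockout. The sorted cells are defined by GFP, not by the edit. Separate cultures for the 3 samples of a group are not stated, and the p-values therefore describe the spread among these 6 samples, part or all of which may be technical.

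Replication-dependent histone genes are switched on together as cells enter S phase, when new DNA needs new nucleosomes, and their mRNAs are degraded when replication stops. A nucleosome is built from H2A, H2B, H3 and H4, and H1 binds the linker DNA between nucleosomes. These genes lack introns in most cases, and their mRNAs usually end in a stem-loop bound by SLBP instead of a poly(A) tail. Many copies encode identical or nearly identical proteins, so a probe set can take up signal from a near-identical copy and each value for a single gene is uncertain in that respect. No 2 members had the same values on all arrays (0 members shared all 6 values with another).

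Myc, the gene targeted by the guide, had log2 RMA values of 9.27, 9.33 and 9.39 on control arrays and 9.55, 9.79 and 9.73 on those labelled Myc KO. The targeted transcript was not lower under the Myc KO label (log2 difference 0.36 ± 0.080 SE, limma's adjusted p = 0.127; exact two-sided permutation p = 0.1, the smallest that 3 against 3 arrays allow), and every direction below rests on the labels. Array medians were 3.27 to 3.34 and lower quartiles 2.04 to 2.13 on the log2 scale. Of 12 ILC2 markers, 10 lay above the median of every array (Il17rb and Thy1 did not), against 3 of 9 T cell markers, 2 of 6 myeloid markers, 1 of 5 NK cell and ILC1 markers and 0 of 5 B cell and 0 of 4 ILC3 markers. The summed log2 value of the 4 ILC3 markers was 6.94 to 7.27 on control arrays and 8.11 to 8.49 on those labelled Myc KO. That of the 6 myeloid markers was 21.18 to 21.98 and 20.33 to 21.10, so neither sum overlapped. These sums do not show that each list moved as a whole. At limma's unadjusted p under 0.05, 1 of the 4 ILC3 markers was higher and 1 of the 6 myeloid markers lower. The median log2 differences of the lists were 0.12 and −0.060. In limma, 1 ILC3 and 1 ILC2 marker passed the adjusted threshold. The part of these markers in the histone values was not tested.

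The sequences upstream of histone genes show how the classes differ before any array value is considered. RefSeq promoters (GRCm38.p6) were found for 34 of the 38 members. The 250 bases before each start site were searched on both strands for the octamer ATTTGCAT, which is bound by OCT1 and is known from H2B promoters, for CCAAT, and for TATAAA; the 3 motifs do not contain one another. An octamer was present in 5 of 9 H2A and 5 of 9 H2B promoters and in 0 of 8 H1, 0 of 5 H3 and 0 of 3 H4 promoters, which gave 29.4% of the members against 1.6% of 32817 promoter windows of the same length. CCAAT was found for 27 members (79.4%, against 33.8% of all windows) and TATAAA for 20 (58.8%, against 12.4%). Both H2A and H2B promoters carried CCAAT in every case (9 of 9 each), while the 3 H4 promoters had none. Oppositely oriented neighbours share much of their windows, so 1 match can count for both genes. Start sites lay 180 bases apart for H2ac8 and H2bc8 and 281 for H2bc1 and H2ac1, and each of these genes had an octamer.

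Printed here are the promoters of the 4 members with the smallest p-values, H3c14, H2bc22, H2bc6 and H4c8, and that of H2ac6 as an H2A gene with all 3 motifs; capitals mark the motifs on either strand. They are H3c14 (chr3:96246435-96246684, plus strand), H2bc22 (chr13:21787238-21787487, plus strand), H2bc6 (chr13:23585971-23586220, minus strand), H4c8 (chr13:23530794-23531043, plus strand) and H2ac6 (chr13:23683960-23684209, minus strand), each written 5′ to 3′ and ending at the base before the start site.
H3c14: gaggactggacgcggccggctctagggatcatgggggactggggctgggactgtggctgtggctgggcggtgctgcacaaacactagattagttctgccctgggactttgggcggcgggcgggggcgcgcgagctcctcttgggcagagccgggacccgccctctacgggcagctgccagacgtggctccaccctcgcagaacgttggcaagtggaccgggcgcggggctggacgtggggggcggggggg
H2bc22: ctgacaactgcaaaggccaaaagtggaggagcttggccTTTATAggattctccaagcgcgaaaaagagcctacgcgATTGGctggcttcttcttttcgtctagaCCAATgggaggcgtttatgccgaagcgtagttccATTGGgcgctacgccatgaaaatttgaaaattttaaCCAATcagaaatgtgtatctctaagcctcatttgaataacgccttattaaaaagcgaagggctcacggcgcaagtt
H2bc6: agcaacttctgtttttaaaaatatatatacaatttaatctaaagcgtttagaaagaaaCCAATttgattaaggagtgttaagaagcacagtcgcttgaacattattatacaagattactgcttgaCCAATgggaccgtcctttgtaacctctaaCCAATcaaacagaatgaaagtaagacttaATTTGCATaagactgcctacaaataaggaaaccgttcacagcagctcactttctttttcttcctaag
H4c8: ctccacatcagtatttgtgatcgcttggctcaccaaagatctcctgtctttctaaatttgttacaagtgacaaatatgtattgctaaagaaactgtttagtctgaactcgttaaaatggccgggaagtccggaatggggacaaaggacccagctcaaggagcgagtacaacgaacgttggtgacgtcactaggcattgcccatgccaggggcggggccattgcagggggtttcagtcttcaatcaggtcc
H2ac6: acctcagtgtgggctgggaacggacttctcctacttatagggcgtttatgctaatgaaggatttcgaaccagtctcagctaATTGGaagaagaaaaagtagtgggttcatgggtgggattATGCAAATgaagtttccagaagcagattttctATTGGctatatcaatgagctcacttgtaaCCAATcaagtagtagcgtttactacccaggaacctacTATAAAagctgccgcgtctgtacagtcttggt
The windows of H3c14 and H4c8 hold none of the 3 motifs. That of H2bc6 has an octamer 67 bases before the start site and 3 CCAAT matches; a second H2bc6 start site in the table, farther upstream, has 3 CCAAT matches and no octamer. The H2bc22 window spans the space between H2bc22 and the oppositely oriented H2ac22, whose start sites lie 240 bases apart. H2ac6 has an octamer 130 bases and a TATAAA 32 bases before its start site.

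No histone gene passed the test over all genes when the arrays labelled Myc KO were set against the controls. The count was 0 of 38 at limma's Benjamini-Hochberg adjusted p under 0.05, in a comparison that called 0.453% of the genes tested, 0.254% as higher and 0.198% as lower. At an unadjusted p under 0.05, limma gave 3 members higher (H2bc22, H2bc6 and H4c8) and 1 lower (H3c14), together 10.5% of the members against 14.9% of all genes (6.97% higher, 7.91% lower). Positive differences were found for 24 members (63.2%) and negative ones for 14, where 52.2% of all genes were positive. The counts were 20 and 18 without replicate 2 of the Myc KO-labelled arrays, where 51.3% of all genes were positive. Under median centring they were also 20 and 18, where 45.1% of all genes were positive. The median log2 difference of the members was 0.027 against 0.0077 over all genes. The groups did not overlap for 6 members (15.8%), 5 higher and 1 lower, against 19.8% of all genes (9.25% higher, 10.6% lower). For H4c9, 1 of the 5, the lowest Myc KO-labelled value and the highest control both rounded to 7.30. Both of these shares of members were near the background of all genes. Of the 24 members above the array median on every array, 8.33% reached that unadjusted p and 20.8% did not overlap. Among all genes above it on every array these shares were 21.6% and 29.9%. Positive differences made up 66.7% of those 24 members and 41.6% of those genes. Over all members, the share at limma's unadjusted p under 0.05 fell on either side of the all-gene share with the fit. It was 18.4% against 14.2% of all genes under cyclic loess and 10.5% against 14.7% under median centring. In bulk RNA of this kind, a change in the share of cells in S phase and a change in histone mRNA per S phase cell cannot be told apart.

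**Figure D1:**
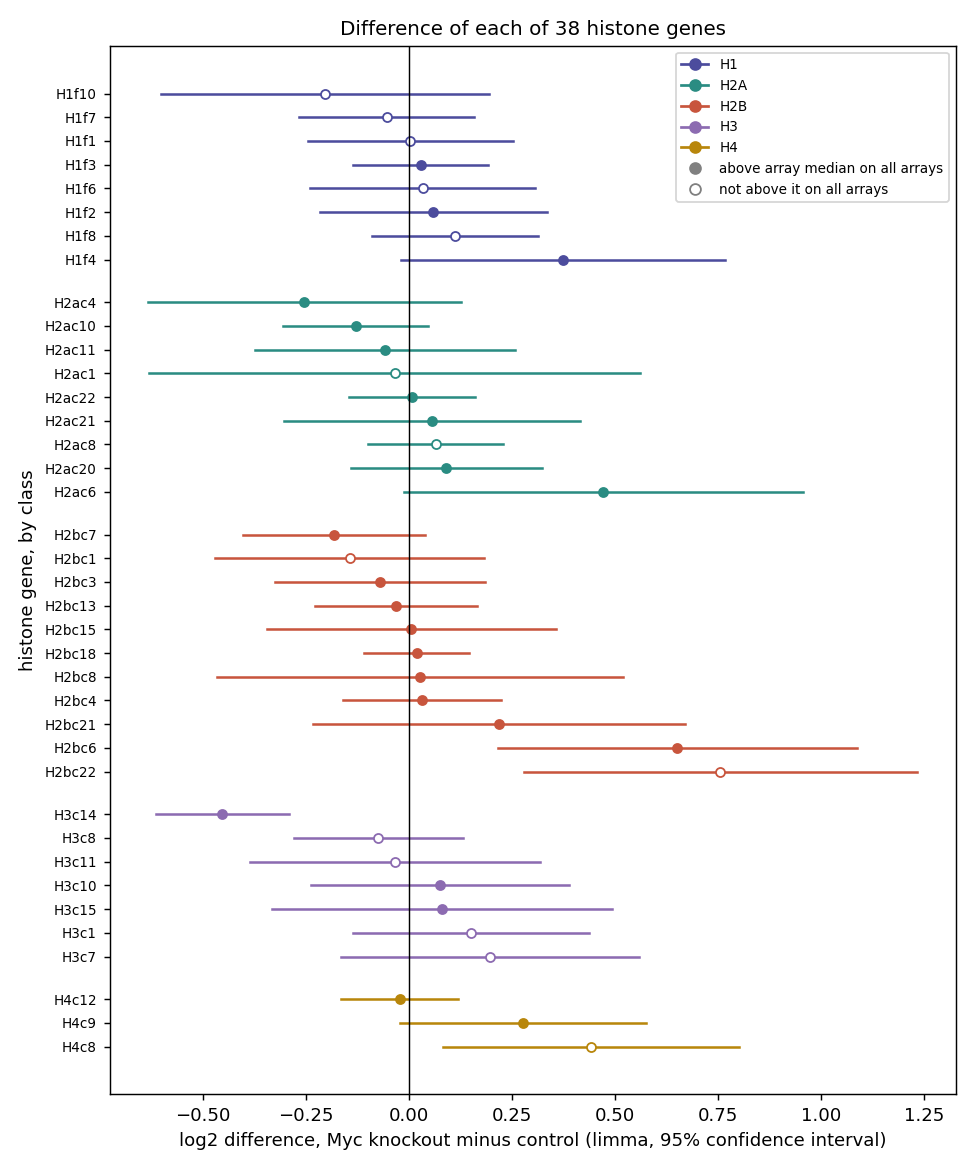
Log2 difference (arrays labelled Myc KO minus control) of each of the 38 genes with its 95% confidence interval from limma, grouped by histone class. Filled points lie above the array median on all 6 arrays and open points do not; most intervals span 0, H3c14 lies to the left at −0.45 and H2bc22 and H2bc6 lie to the right at 0.76 and 0.65.

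The intervals show how large a change could have gone unseen. Of the 38 members, 25 had a 95% confidence interval within 0.5 log2 units of 0 on either side (a 1.41-fold change), and 36 within 1 log2 unit. For all genes tested the corresponding shares were 81.7% and 98.4%, against 65.8% and 94.7% of the members. The median half-width of the interval was 0.29 log2 units for the members and 0.21 for all genes. Values above the array median on every array were found for 24 members, and the other 14 were dim on at least 1 array, so that a lack of change cannot be read from them.

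H3c14, which encodes the replicative H3.2 protein in the chromosome 3 cluster, had the smallest p-value among the members. The 3 control arrays stood at 6.59, 6.49 and 6.64 on the log2 scale and, against them, those labelled Myc KO stood at 6.19, 6.11 and 6.06. All 3 Myc KO-labelled values lay below all 3 control values, and each group spanned less than the gap between them. The log2 difference was −0.45 ± 0.067 SE (95% confidence interval −0.61 to −0.29), a level 1.37-fold lower, with unadjusted p = 0.000353. This missed the threshold over all genes (limma's adjusted p = 0.0602), and adjusted p over the 16 other fits ranged from 0.0182 to 0.204, under 0.05 in 4 of them. In 5 of the 16 fits no gene at all passed and in 2 others 1 or 2 genes did, while in the 4 fits that called H3c14 0.267% to 2.98% of all genes were called lower, against 0.198% here. Leaving out any single array kept the log2 difference between −0.49 and −0.42.

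H3c15, the second H3.2 gene of that cluster and separated from H3c14 by 2 H2A genes, overlapped between the groups. Its values were 5.33, 5.20 and 5.15 on control arrays and 5.20, 5.70 and 5.02 on those labelled Myc KO (log2 difference 0.080 ± 0.17 SE, 95% confidence interval −0.33 to 0.49; −0.12 without replicate 2 of the Myc KO-labelled arrays). The difference between these 2 neighbours was not tested. Among the other H3 genes, H3c1, H3c7, H3c8 and H3c11 had control means of 1.02 to 2.02, below the lower quartile of the arrays, where a lack of change cannot be read. H3c7 stood at 1.31, 1.31 and 0.98 on control arrays and 1.11, 1.60 and 1.47 on those labelled Myc KO, and H3c1 at 1.85, 1.98 and 2.24 against 2.05, 2.31 and 2.16, with overlap in both. H3c10 was close to the array median, with 3.83, 3.83 and 4.17 on control arrays and 4.20, 4.03 and 3.83 in the others.

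**Figure D2:**
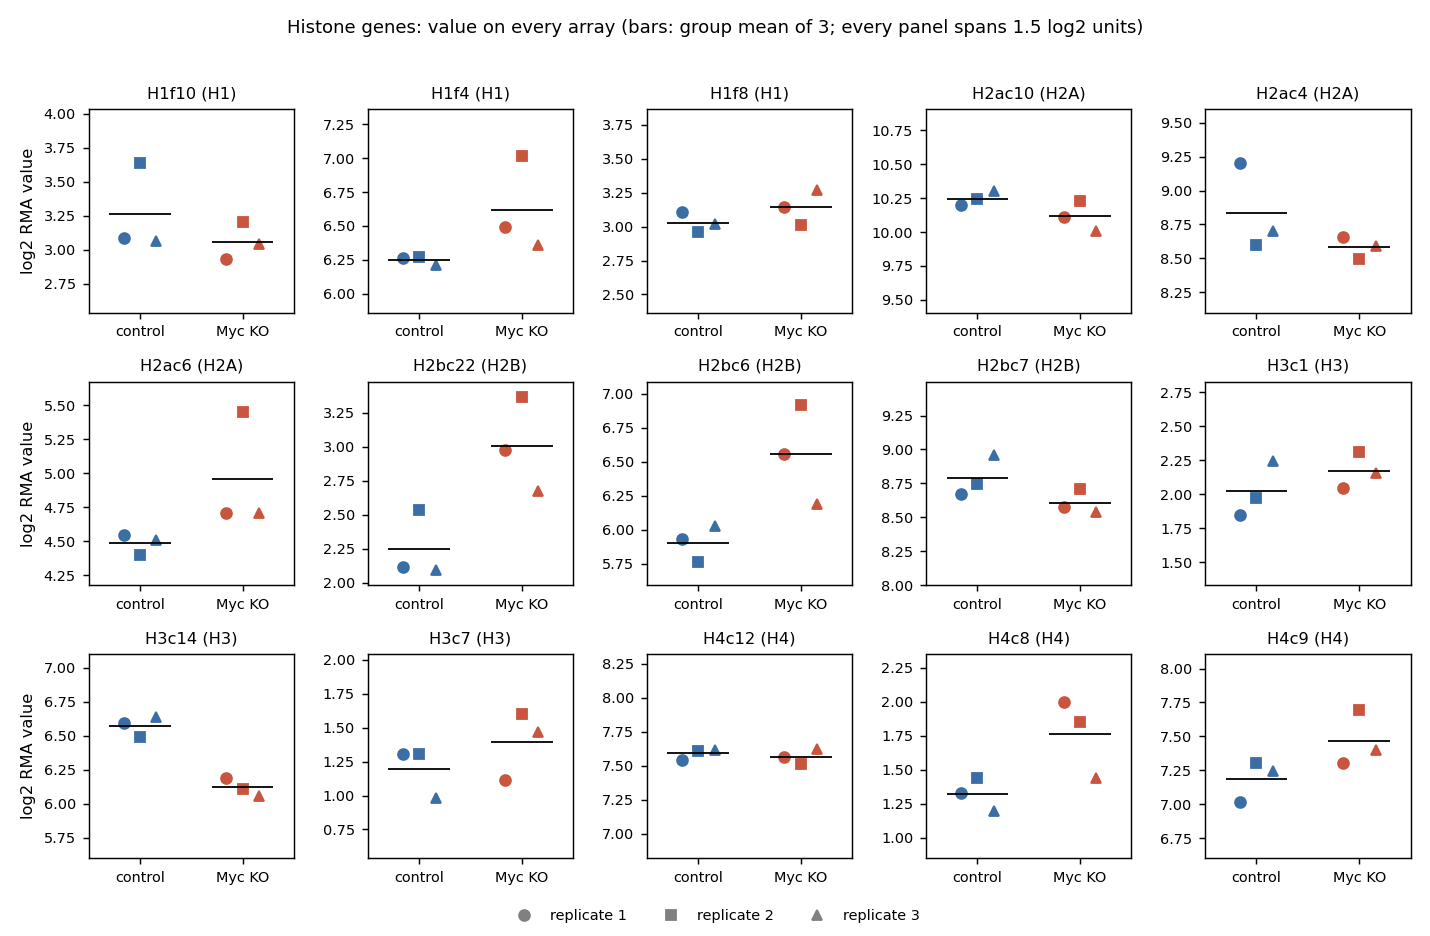
Log2 RMA value on each array for the 15 histone genes picked by the naming rule (the 3 smallest p-values and the largest difference in each class), with controls on the left and arrays labelled Myc KO on the right of each panel. Marker shape gives the replicate, bars the group means, and every panel spans the same log2 range; H3c14 is lower in all 3 arrays labelled Myc KO, and replicate 2 of them is the highest array for H1f4, H2ac6, H2bc6, H2bc22, H3c1, H3c7 and H4c9.

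The H2B genes, which encode the partner of H2A in the nucleosome, held both of the largest positive differences. H2bc6 had log2 values of 5.93, 5.76 and 6.02 on control arrays and 6.56, 6.92 and 6.19 on those labelled Myc KO. The groups did not overlap, though the lowest Myc KO-labelled value exceeded the highest control by less than the Myc KO-labelled arrays differed among themselves. The log2 difference was 0.65 ± 0.18 SE, 1.57-fold, without passing (95% confidence interval of the fold 1.16 to 2.12; unadjusted p = 0.00991; limma's adjusted p = 0.190). The H2bc6 gene model overlaps 1 other gene in RefSeq, Gm33387, and the array's handling of strand is not given in the sources used here.

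H2bc22 stood at 2.12, 2.53 and 2.09 on control arrays and 2.98, 3.37 and 2.67 on those labelled Myc KO, a log2 difference of 0.76 ± 0.20 SE (unadjusted p = 0.00758, limma's adjusted p = 0.173). These values lie at or below the array medians apart from the highest, so the fold cannot be read as exact. H2ac22, its partner across the shared 240 bases, was at 10.81, 10.79 and 10.83 on control arrays and 10.77, 10.92 and 10.77 in the others, a log2 difference of 0.0077 ± 0.063 SE. The other head-to-head pairs with both promoters in the table were H2ac8 with H2bc8 (log2 differences 0.065 and 0.026) and the testis pair H2bc1 with H2ac1 (−0.14 and −0.035), with start sites 180 and 281 bases apart.

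H2bc7 was at 8.67, 8.75 and 8.96 on control arrays and 8.58, 8.71 and 8.54 on those labelled Myc KO (log2 difference −0.18 ± 0.092 SE, and −0.099 without control replicate 3), and the groups overlapped. The remaining H2B genes had log2 differences between −0.14 for H2bc1 and 0.22 for H2bc21. The narrowest of them was H2bc18, at 7.75, 7.81 and 7.82 in controls against 7.82, 7.82 and 7.79 (95% confidence interval of the log2 difference −0.11 to 0.15). H2bc13 (−0.032 ± 0.082 SE), H2bc4 (0.032 ± 0.080 SE) and H2bc3 (−0.070 ± 0.11 SE) likewise differed by less than their errors. By class, 2 of 11 H2B genes were higher and 0 lower (limma's unadjusted p under 0.05), 18.2% against 14.9% of all genes, with a median log2 difference of 0.019.

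Among the 9 H2A genes, 0 reached an unadjusted p under 0.05 in limma, and the median log2 difference was 0.0077. H2ac6 came nearest (unadjusted p = 0.0545), with 4.55, 4.40 and 4.51 on control arrays and 4.71, 5.45 and 4.71 on those labelled Myc KO. The groups did not overlap, and 1 array stood above the other 5 (log2 difference 0.47 ± 0.20 SE, and 0.23 without that array). H2ac10 was at 10.20, 10.24 and 10.30 on control arrays and 10.11, 10.23 and 10.01 in the others (log2 difference −0.13 ± 0.073 SE, and −0.078 without replicate 3 of those arrays). H2ac4 had 9.20, 8.60 and 8.70 against 8.65, 8.50 and 8.59, where the first control array stood above the other 5 (log2 difference −0.25 ± 0.16 SE, and −0.069 without that array). For H2ac20 and H2ac21 in the chromosome 3 cluster the log2 differences were 0.091 and 0.056.

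Of the 3 H4 genes, whose copies encode the same protein, H4c9 and H4c8 had positive differences and the difference of H4c12 was smaller than its error. H4c9 was at 7.02, 7.30 and 7.24 on control arrays and 7.30, 7.69 and 7.40 on those labelled Myc KO, with the lowest of these equal to the highest control to 2 decimals (log2 difference 0.28 ± 0.12 SE, unadjusted p = 0.0643; 0.16 without replicate 2 of the Myc KO-labelled arrays). H4c8 had 1.33, 1.44 and 1.20 on control arrays and 2.00, 1.85 and 1.44 in the others (0.44 ± 0.15 SE, unadjusted p = 0.0232), all below the lower quartile of their arrays, with overlap at 1.44. H4c12 stood at 7.54, 7.61 and 7.62 on control arrays and 7.56, 7.51 and 7.63 in the others, with a log2 difference of −0.022 ± 0.059 SE that was positive under cyclic loess (0.0030) and without replicate 2 of the Myc KO-labelled arrays (0.0047). None of the 3 passed over all genes in limma (smallest adjusted p = 0.259).

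Among the linker histone genes, 0 of 8 reached an unadjusted p under 0.05 in limma, and the median log2 difference was 0.031. H1f4, which encodes H1.4, was at 6.26, 6.27 and 6.21 on control arrays and 6.49, 7.01 and 6.36 on those labelled Myc KO. All 3 lay above the controls, and the second was far above the other 2 (log2 difference 0.37 ± 0.16 SE, unadjusted p = 0.0587). H1f2 and H1f3, the H1.2 and H1.3 genes, differed by 0.059 ± 0.11 SE and 0.029 ± 0.068 SE. H1f8, the oocyte linker histone, and H1f10, the replacement variant H1.10, are not replication-dependent but match the naming rule; H1f8 had 3.11, 2.96 and 3.02 against 3.15, 3.01 and 3.27, and H1f10 3.09, 3.64 and 3.06 against 2.93, 3.20 and 3.04. With the germ cell genes H1f6, H1f7, H2ac1 and H2bc1 they form 6 members that are restricted to germ cells or independent of replication; none of the 6 was above the array median on all arrays, and 0 reached an unadjusted p under 0.05. Without these 6, the counts were 3 higher and 1 lower of 32 and the median log2 difference was 0.030.

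Along the clusters the differences ran in both directions. On chromosome 13 the measured neighbours H2bc6, H1f4 and H2ac6 follow one another and had log2 differences of 0.65, 0.37 and 0.47, with H2bc7 before them at −0.18 and H2bc4 after them at 0.032. Without replicate 2 of the Myc KO-labelled arrays, H2bc6, H1f4 and H2ac6 differed by 0.47, 0.18 and 0.23. RefSeq lists 0 genes between H2bc6 and H1f4 and 1, Gm22452, between H1f4 and H2ac6. Over the whole chromosome 13 cluster, 18 of 29 members had positive differences with a median of 0.026. In the chromosome 3 cluster 5 of 6 did, with a median of 0.068, where 52.2% of all genes were positive. Without replicate 2 of the Myc KO-labelled arrays, 3 of the 6 chromosome 3 members and 51.3% of all genes were positive. Members with an octamer had a median log2 difference of 0.022 (10 genes), and those with a promoter but no octamer one of 0.0068 (24 genes).

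**Figure D3:**
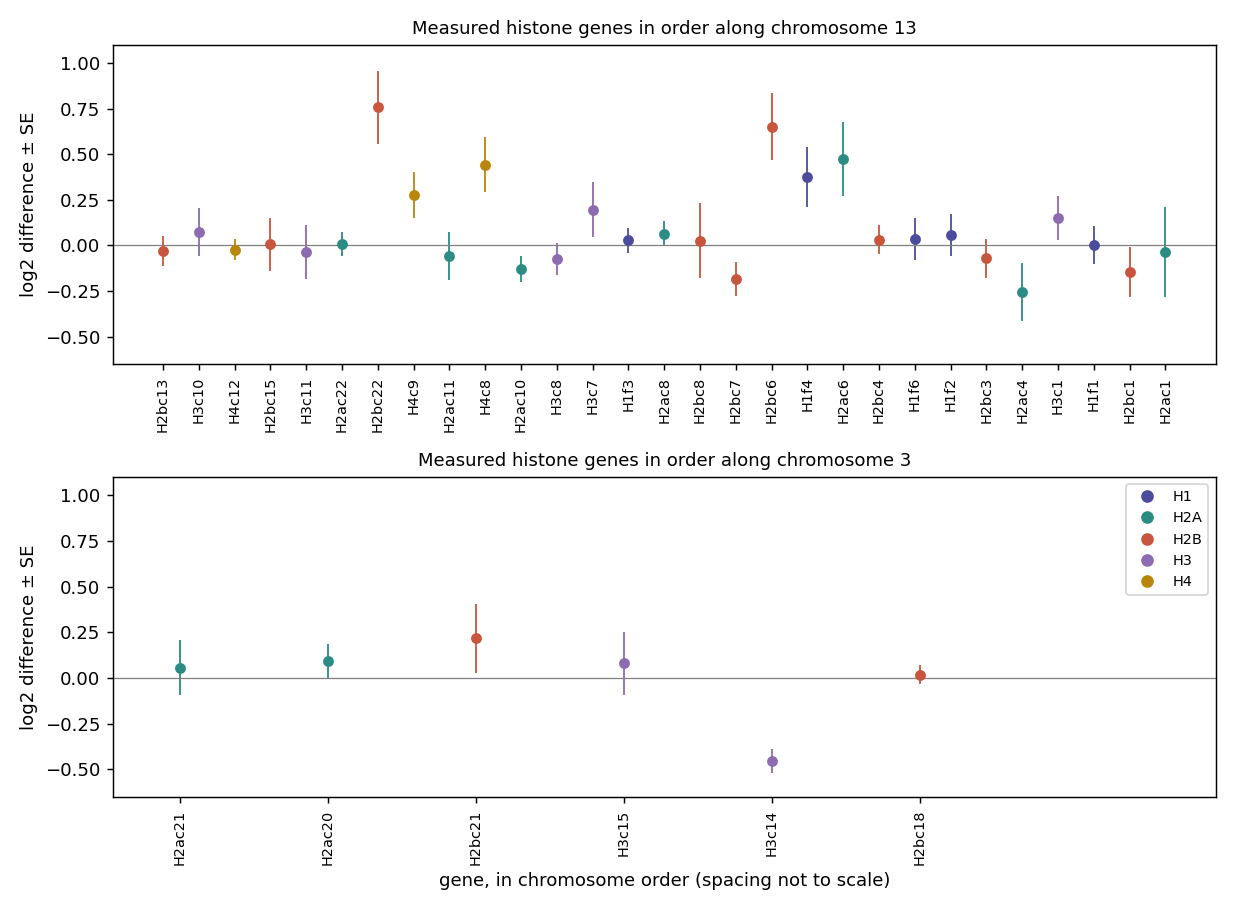
Log2 difference ± SE (arrays labelled Myc KO minus control) of the measured histone genes in the order in which they lie on chromosome 13 (top) and chromosome 3 (bottom), coloured by class; spacing is not to scale. The consecutive genes H2bc6, H1f4 and H2ac6 lie at 0.65, 0.37 and 0.47 (0.47, 0.18 and 0.23 without replicate 2 of the Myc KO-labelled arrays). H3c14 lies at −0.45 next to H3c15 at 0.080 (−0.12 without that array).

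Replicate 2 of the arrays labelled Myc KO stood apart from the other 5 for many histone genes. This array held the highest of the 6 values for 14 of 38 members (36.8%), where it held the highest value for 17.5% of all genes. For 10 members it lay more than 0.2 log2 units above both other arrays of its group (26.3%, against 6.68% of all genes); among them were H2ac6 (by 0.74), H2bc21 (0.59), H1f4 (0.52), H3c15 (0.51), H2bc15 (0.48) and H2bc8 (0.48). Replicate 3 lay more than 0.2 log2 units below both other arrays of the group for 8 members (21.1%, against 6.06% of all genes). The median over members of the value minus the control mean was −0.022, 0.088 and −0.050 in replicates 1, 2 and 3 of the arrays labelled Myc KO, and −0.027, 0.0031 and 0.020 in the controls. The sign of that median thus differed within the group. Across arrays of 1 group, the median SD of a member was 0.15 on those labelled Myc KO and 0.12 in the controls, against 0.10 and 0.093 for all genes. The margin of 0.2 and this array were picked after the values had been seen.

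Without that array, limma gave 4 higher members and 2 lower ones (unadjusted p under 0.05), 15.8% of the members against 13.7% of all genes. No gene of the 23185 passed the adjusted threshold in that fit, so the 0 calls among the members are uninformative. The 4 were H2bc22 (log2 difference 0.58), H2bc6 (0.47), H2ac6 (0.23) and H1f4 (0.18), and the 2 were H3c14 (−0.45) and H2ac10 (−0.19). The difference of H2ac6 was thus 0.23 in place of 0.47, and that of H1f4 0.18 in place of 0.37. H2bc21, at 5.39, 5.15 and 5.31 on control arrays and 5.34, 5.94 and 5.22 on those labelled Myc KO, went from 0.22 to −0.00030. The median over members was 0.00073 without the array.

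**Figure D4:**
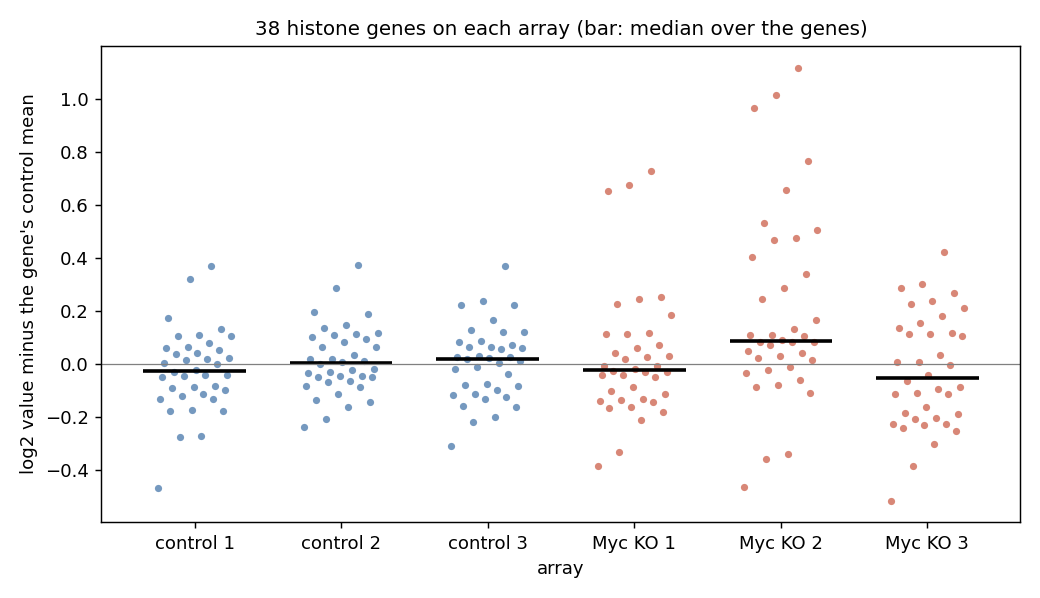
Each point is 1 of the 38 histone genes on 1 array, as its log2 value minus the gene's control mean; bars are medians over the genes. The median bar is highest in replicate 2 of the arrays labelled Myc KO (0.088) and lowest in replicate 3 of the same group (−0.050), and the points above 0.6 all lie in replicates 1 and 2 of that group.

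Genes that act on histone mRNA had small differences. The list held 23 measured genes for transcription and 3′ end processing of histone mRNA, of which 1 was higher and 0 lower (unadjusted p under 0.05; 4.35% against 14.9% of all genes) and 0 passed limma's adjusted threshold; the median log2 difference was 0.024. Slbp, whose product binds the stem-loop, stood at 7.52, 7.60 and 7.42 on control arrays and 7.55, 7.63 and 7.63 on those labelled Myc KO (0.089 ± 0.069 SE). Npat, the cyclin E–CDK2 substrate that activates histone transcription, had 6.86, 6.66 and 6.62 against 6.74, 6.75 and 6.86 (0.073 ± 0.083 SE). Casp8ap2, which encodes FLASH of the histone locus body, had 6.21, 6.11 and 5.97 against 6.10, 6.03 and 6.26 (0.035 ± 0.090 SE). The groups overlapped for all 3. Snrpd3, a core protein of the Sm ring that also sits on U7 snRNA, was the 1 gene at an unadjusted p under 0.05 (0.15 ± 0.061 SE).

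Histone genes listed as replication-independent showed differences in both directions. Of 9 measured replication-independent histone genes, 1 was higher and 1 lower by that unadjusted threshold (22.2% against 14.9% of all genes), 0 passed limma's adjusted threshold, and the median log2 difference was 0.074. H3f3b, which encodes the replacement histone H3.3, was at 8.02, 8.25 and 8.41 on control arrays and 8.54, 9.08 and 9.08 on those labelled Myc KO, without overlap (0.67 ± 0.17 SE, limma's adjusted p = 0.171). H2az2, an H2A.Z gene (former H2afv), was at 7.09, 7.11 and 7.11 on control arrays and 6.90, 6.80 and 6.78 in the others, also without overlap (−0.28 ± 0.058 SE, limma's adjusted p = 0.112). H2az1, the other H2A.Z gene, and H2ax, whose product is phosphorylated at DNA breaks, differed by 0.041 ± 0.098 SE and 0.12 ± 0.075 SE with overlapping groups. Replicate 2 of the arrays labelled Myc KO was the highest array for 7 of these 9 genes.

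Histone chaperones, which carry new histones to DNA, were also mixed. Of 21 measured genes, 3 were higher and 2 lower by that unadjusted threshold (23.8% against 14.9% of all genes). All 21 lay above the array median on every array, and of all genes that did so 21.6% reached that threshold, close to the share of the list. None passed limma's adjusted threshold, and the median log2 difference was 0.029. Nasp, a chaperone of H3 and H4, was at 6.74, 6.75 and 6.62 on control arrays and 6.91, 6.92 and 7.02 on those labelled Myc KO (0.24 ± 0.065 SE). Anp32e, which removes H2A.Z, differed by 0.19 ± 0.059 SE. Hjurp, the chaperone of the centromeric histone, and Atrx, the partner of DAXX in H3.3 deposition, had log2 differences of −0.20 ± 0.054 SE and −0.22 ± 0.065 SE. The groups did not overlap for any of these 4, and limma's adjusted p was 0.178 to 0.239.

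A list of 31 genes of DNA replication, its licensing, nucleotide supply and S phase entry had mostly positive differences. The list is a selection made with earlier results of these data known, so its shares are description only. A positive sign was found for 28 of the 31 (90.3%), against 52.2% of all genes and 41.6% of those above the array median on every array. Among the histone members the share was 63.2%, and 66.7% among the 24 above the median on every array. The median log2 difference of the list was 0.10. Without adjustment 12 of the 31 were higher and 0 lower in limma (p under 0.05), where 6.97% of all genes were higher and 7.91% lower. All 31 lay above the array median on every array. In either direction 38.7% of them reached that unadjusted threshold, against 21.6% of all genes above the median on every array. Of the 31, 0 passed limma's adjusted threshold. Cdc6, which loads the replicative helicase, was at 6.62, 6.60 and 6.58 on control arrays and 6.93, 6.96 and 6.93 on those labelled Myc KO (0.34 ± 0.052 SE, limma's adjusted p = 0.0649). Rfc3, a clamp loader subunit, had 5.96, 5.99 and 5.78 against 6.33, 6.54 and 6.50 (0.55 ± 0.086 SE, limma's adjusted p = 0.0685). The difference between the S phase genes and the histone genes was not tested. Replicate 2 of the Myc KO-labelled arrays was the highest array for 15 of these 31 genes (48.4%).

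**Figure D5:**
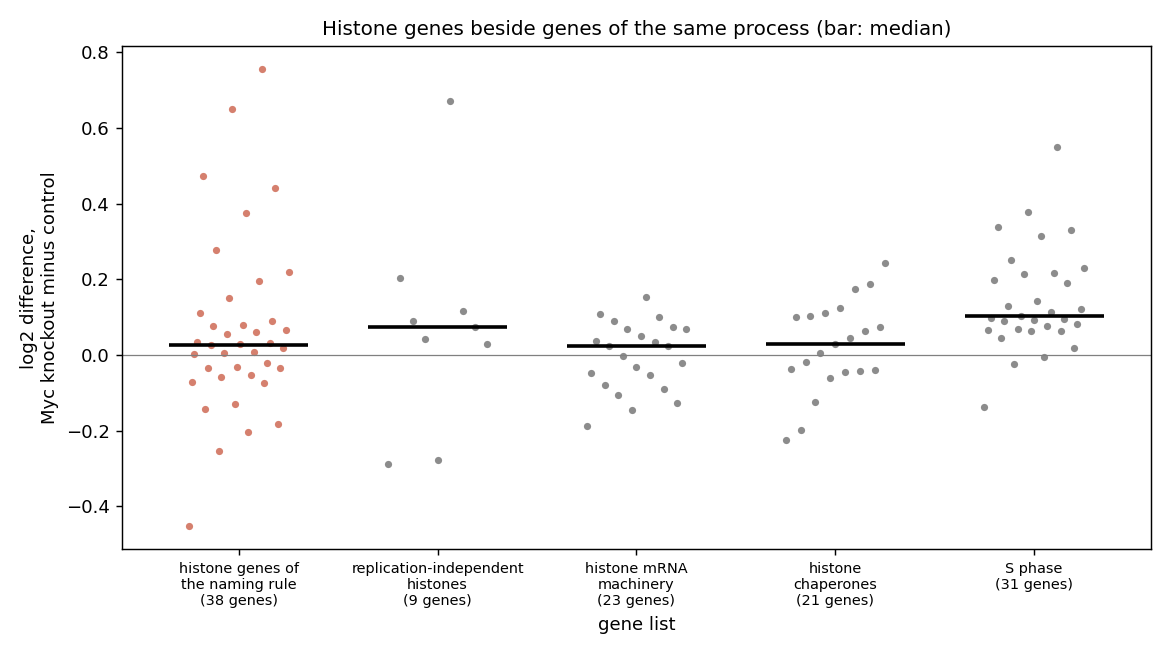
Differences in log2 value, Myc KO label minus control, of the 38 histone genes chosen by name (left) beside 4 lists of related genes; each point is a gene and the bars are medians. The histone genes spread from −0.45 to 0.76 around a median of 0.027, and the S phase genes lie mostly above 0 with a median of 0.10.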

How the data were processed

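Total RNA of 3 control and 3 Myc knockout samples, grouped by title, was measured on Affymetrix arrays. The deposited values are log2 values that the authors made with RMA, per the submitters' processing notes, which also name limma 3.14.4 with no role. RMA equalises intensity distributions, which takes out any shift common to all transcripts. The probe set definition, like the genome build, is not given in the sources used here. The number of arrays limits the precision.

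An annotation table named 23185 of 25206 probe sets with 1 symbol and none with several; the 2021 others are unnamed here. Every named gene entered 1 fit with limma 3.58.1 under R 4.3.3 (lmFit, eBayes, no covariate, two-sided, Benjamini-Hochberg over all genes, threshold 0.05), a procedure tested on simulated data. Lists are described by counts and medians. Alternatives were other scalings, filters, prior variances, weights, thresholds, a replicate block and leaving out each array. In each histone class the 3 smallest p-values and the largest difference were given in full, and in each list up to 2 genes per direction plus Slbp, Npat, Casp8ap2, H2az1, H2ax and H3f3b; other genes were named after their values were seen. Members and lists were chosen with earlier results of these data known. Figures were drawn with matplotlib 3.10.9.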

Additional observations from a re-analysis of the deposited data

How the results depend on the processing

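The 38 members had 0 higher calls in limma under all 16 other fits and at adjusted p thresholds of 0.1 and 0.01. In 5 of these fits (the replicate block, each control array left out, and replicate 2 of the Myc KO-labelled arrays left out) no gene at all passed, and in 2 others 1 or 2 did, so they say nothing about the members. A single lower call, H3c14, appeared with a prior variance that followed intensity, under median centring, among genes at or above the median level, among genes above the lower quartile and at an adjusted p threshold of 0.1 (1 each); adjusted p was 0.0250, 0.0450, 0.0182 and 0.0399 in the first 4, where 0.897%, 0.267%, 2.98% and 0.575% of all genes were called lower. At limma's unadjusted p under 0.05 the count of higher members, 3, was 6 with the trend and 6 under cyclic loess. It was 1 among members at or above the median level and 2 to 5 when 1 array was left out. Over all genes, the higher share was 6.97% in the main fit, 7.26% with the trend and 7.41% under cyclic loess. That share was 5.65% to 6.78% when 1 array was left out. The lower count of members was 1 to 2 when 1 array was left out, where 6.27% to 7.28% of all genes were lower. The replicate numbers showed no sign of pairing the arrays (same-number correlations of deviations −0.070 to −0.012, and 0 of 6 arrays correlated best with their own number). Low correlations cannot exclude that the samples were paired. With a replicate block, 5 members were higher and 1 lower at limma's unadjusted p under 0.05 (15.8% against 13.1% of all genes). At the adjusted threshold that fit gave 0 calls over all genes, members included. The median over members stayed between 0.00073 and 0.040 in every fit. H4c12 turned to 0.0030 under cyclic loess and to 0.0047 without replicate 2 of those labelled Myc KO (−0.052 without replicate 3 of them).

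Among the related lists, the median of the histone mRNA genes was −0.00097 under median centring, 0.047 under cyclic loess and −0.012 to 0.042 when 1 array was left out, and that of the chaperones 0.0035, 0.063 and 0.0032 to 0.048. Replication-independent histones gave 1 lower call with the trend and 1 in the brighter genes (at or above the median level). S phase genes gave 2 higher calls with the trend, 2 under cyclic loess, 2 at or above the median level and 2 above the lower quartile, where 0.699%, 0.302%, 1.76% and 0.529% of all genes were called higher. The cause of these shifts was not tested. Signal close to background limits the 14 dim members.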
